A study of Mus musculus with 9 samples.

Results

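The cytosolic ribosomal protein genes are the protein-coding genes for the proteins of the cytosolic ribosome, which were selected by symbol alone: all Rpl and Rps genes with a number, together with Rplp0, Rplp1, Rplp2 and Rpsa, without S6 kinases, pseudogenes by name and Gm models. The rule found 83 of 22136 genes, of which 51 belong to the large and 32 to the small subunit. Filtering on low counts left 81 of the 83 for testing; Rpl39l and Rpl10l, which are known for their expression in testis, had almost no reads and were not tested. Bulk RNA came from skin tumors grown from YUMMER1.7 cells, an immunogenic mouse melanoma line, injected under the skin of immunocompetent C57BL/6J mice. The 3 groups of 3 libraries received an IgG isotype control, an antibody against the checkpoint protein B7-H3 or an antibody against the checkpoint receptor PD1, in each case after tumors had formed. The RNA was total RNA depleted of ribosomal RNA. A combination arm named in the design is not analysed here. Whether the libraries of a group came from separate mice is not said in the labels, so p-values here measure the spread among these libraries, which may be technical.

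A ribosome holds 1 copy of nearly every ribosomal protein, and cells adjust the synthesis of these proteins as a set. Their mRNAs typically begin with a C followed by a run of pyrimidines, the terminal oligopyrimidine tract, through which mTORC1 and LARP1 regulate their translation and stability. In tumors the set is known to follow growth and MYC activity, and in immune cells it rises with activation. Most members have processed pseudogenes in the mouse genome, which makes their reads harder to place than those of other genes.

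The starts of 6 members, taken from those that hold the tract at the annotated start, are printed to show this shared signature, each from 10 bases before the annotated start to 20 bases from it, with the pyrimidine run at the start in capitals. They come from RefSeq on GRCm38.p6: Rps15a lies at chr7:118116128-118116157, Rps6 at chr4:86857348-86857377, Rps18 at chr17:33955646-33955675, Rpl35 at chr2:39005112-39005141 and Rps10 at chr17:27635225-27635254, all on the minus strand, and Rplp2 at chr7:141447641-141447670 on the plus strand.
Rps15a: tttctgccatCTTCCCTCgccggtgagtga
Rps6: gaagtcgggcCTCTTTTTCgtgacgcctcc
Rps18: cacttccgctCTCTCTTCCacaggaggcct
Rpl35: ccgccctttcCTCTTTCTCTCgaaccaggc
Rps10: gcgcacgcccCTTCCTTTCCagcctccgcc
Rplp2: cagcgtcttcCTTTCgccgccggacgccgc
Start sequences matched 63 of the 83 members. A C followed directly at the annotated start by at least 4 pyrimidines (C or T) was present in 13 of the 63 (20.6%), against 3.01% of 27025 genes. A wider window ran from base -25 to 35 around the start, on the strand that reads like the mRNA. There 38 of 63 members (60.3%) held a C with at least 7 further pyrimidines, against 19.8% of all genes. Within the 300 bases from 250 before to 50 after the start, CGGAAG, searched on both strands, occurred in 42 of 63 members (66.7%) and in 18.8% of all genes. TATAAA, also searched on both strands, occurred in 7 of the 63 members (11.1%) and in 15.7% of all genes. These shares describe letters in a window, and the motifs were not matched to binding data.

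The libraries behind these values differed in usable depth. Between 87.0% and 92.1% of gene reads in the IgG libraries, and between 5.24% and 38.2% in the antibody libraries, fell on 12 genes made of major satellite repeat. Reads outside these genes came to 1218961 to 3533127 under IgG and 5320053 to 14404373 under the antibodies. Reads of 1514 olfactory and vomeronasal receptor genes, a measure of background, made up 768 to 4987 CPM (counts scaled to a common library total) of reads outside satellite genes under IgG and 40.4 to 282 CPM under the antibodies, with no overlap. Spread evenly over coding bases, and counted once for each member and once more for each of its annotated pseudogene copies, this background would amount to 0.325% to 3.59% of member reads in the IgG libraries and to at most 0.104% in the antibody libraries. The median tested member had 298 reads in IgG replicate 3, the shallowest library, and 8080 in anti-B7-H3 replicate 3. Melanocyte markers were near the floor, with 2 of 9 having reads in every library and a summed level of 4.60 to 22.5 CPM, whereas 6 of 6 fibroblast and 8 of 8 macrophage markers had reads in every library. Summed erythroid markers were 64.0 to 355 CPM under IgG and 20.7 to 56.1 under the antibodies, with 5 of 5 having reads in every library. Summed keratinocyte markers were 10.1 to 23.9 CPM under IgG and 0.528 to 2.11 under the antibodies, also without overlap, with 4 of 6 having reads in every library. The part of depth, background and these markers in the results that follow was not tested unless stated.

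As a share of reads outside the satellite genes, the 83 members took 3.90%, 4.74% and 2.785% in the 3 IgG libraries. Anti-B7-H3 libraries gave 4.48%, 4.91% and 5.43%, and anti-PD1 libraries 5.44%, 8.23% and 4.85%. Group means were 3.81% ± 0.983 (SD, n = 3), 4.94% ± 0.476 (SD, n = 3) and 6.18% ± 1.80 (SD, n = 3). All 3 anti-PD1 libraries lay above all 3 IgG libraries, but anti-PD1 replicate 3, at 4.85%, was close to IgG replicate 2, at 4.74%, and the anti-B7-H3 range overlapped both other groups. Wilson 95% intervals, which cover counting error only, were narrow beside these differences; in IgG replicate 3 the interval ran from 2.76% to 2.81%. The same order held for the mean log2 CPM of the 81 tested members, on the TMM scale that sets the typical gene equal between libraries. It was 7.12, 7.32 and 6.98 under IgG, 7.15, 7.32 and 7.50 under anti-B7-H3, and 7.47, 8.06 and 7.33 under anti-PD1. In 74 of the 81 tested members the highest value of all 9 libraries was in anti-PD1 replicate 2, and in 35 the lowest was in IgG replicate 3.

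**Figure D1:**
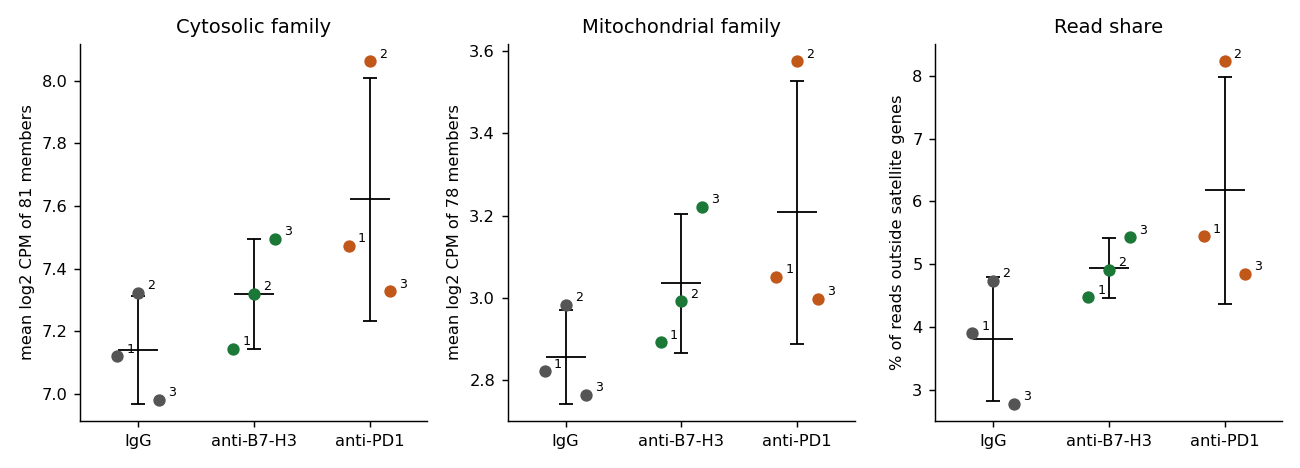
Mean log2 CPM of the 81 tested cytosolic members (left) and of the 78 mitochondrial ribosomal protein genes (middle), and the members' share of reads outside the satellite genes in percent (right), with 1 point per library, labelled by its replicate number, and bars for the group mean ± SD. Anti-PD1 replicate 2 is the highest library in all 3 panels, at 8.06 and 3.57 on the log2 scale and 8.23% of reads.

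For the question of how PD1 blockade moved the family, anti-PD1 was compared with IgG. The members were higher on the whole, with a median log2 fold change of 0.50 (1.42-fold) against 0.01 over the 12965 genes tested, and 76 of 81 were above 0, against 50.5% of all genes. No member passed an adjusted p of 0.05 in edgeR's quasi-likelihood test, in which 51 genes passed (0.393%), 1 of them higher (0.00771%) and 50 lower (0.386%); the smallest adjusted p of a member was 0.0641. At an unadjusted p under 0.05, 33 members were higher and 0 lower, that is 40.7% of members against 7.67% of all genes higher and 10.8% lower. In 31 members (38.3%, against 11.1% of all genes) every anti-PD1 library lay above every IgG library, and in 0 every one lay below (11.9% of all genes). Other tools and filters called more genes, and the members they called were all higher. DESeq2 called 12 members higher (1.38% of all genes higher), limma-voom with quality weights 6 (1% of all genes), and edgeR without a filter on low counts 16 of 83 (1.25% of all genes). Leaving out IgG replicate 2 gave 2 members called higher (0.151% of all genes), and leaving out anti-B7-H3 replicate 1 gave 1 (0.0376%).

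A single library carried much of the size of this difference. Without anti-PD1 replicate 2 the median went from 0.50 to 0.25, the members above 0 from 76 to 68, and those higher at an unadjusted p under 0.05 from 33 to 16, with 1 lower (5.4% and 8.44% of all genes). Without it 31 members lay above IgG with no overlap and 1 below, while the share of all genes above rose to 15.9%, since fewer libraries make separation easier. Leaving out IgG replicate 1 left 15 members higher at that p (4.10% of all genes). With the log2 share of receptor reads as a covariate the median was -0.001 and 40 of 81 members were above 0; since that share was lower in every antibody library than in every IgG library, treatment and background cannot be told apart. Anti-PD1 replicate 2 also had the highest summed macrophage markers, at 775 CPM, against 154 to 352 under IgG, 389 to 690 under anti-B7-H3 and 289 and 334 in the other anti-PD1 libraries. Its summed skeletal muscle markers were 939 CPM, with 5 of 6 markers having reads in every library, against 18.9 to 44.1 under IgG, 1.25 to 1370 under anti-B7-H3, and 54.9 and 418 in the other anti-PD1 libraries. The part of these cell types in the result was not tested, and in bulk RNA fewer cells of a type cannot be told apart from less RNA per cell.

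**Figure D2:**
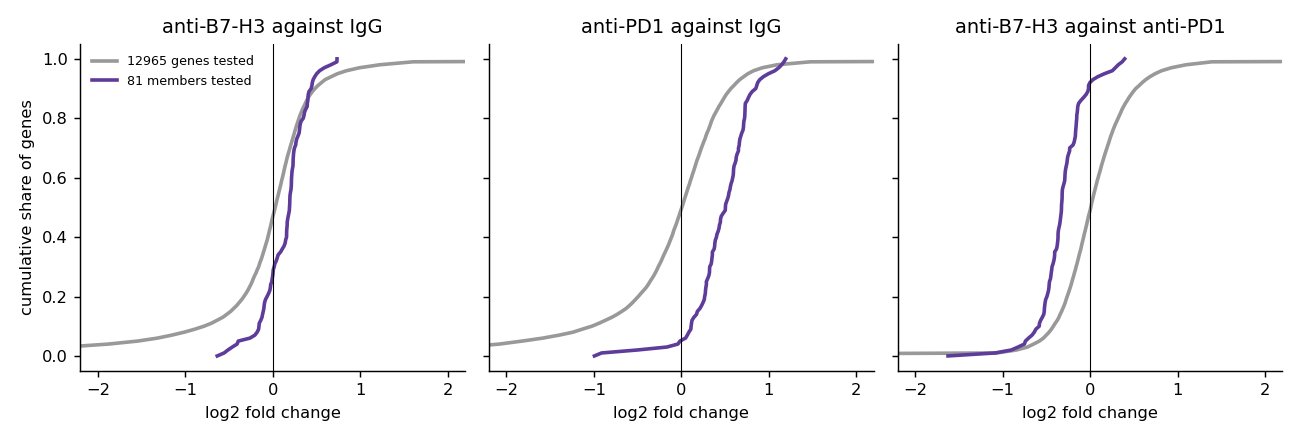
Cumulative share of genes (vertical axis) by log2 fold change (horizontal axis) for the 81 tested members (purple) and all 12965 tested genes (grey) in the 3 comparisons. The member curve lies to the right of the grey curve for anti-PD1 against IgG, where the medians are 0.50 and 0.01, and to the left for anti-B7-H3 against anti-PD1, where they are -0.33 and 0.01.

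Among small subunit proteins, Rps15a, a protein of the subunit's body, had the smallest p for anti-PD1. It measured 94.4, 113.8 and 90.2 CPM under IgG, 103.8, 135.7 and 165.9 under anti-B7-H3, and 230.8, 288.5 and 164.4 under anti-PD1. Every anti-PD1 library lay above every IgG library, and the log2 fold change was 1.19 ± 0.25 (SE, edgeR, adjusted p = 0.0641). Rps13, which binds ribosomal RNA, measured 71.4, 65.4 and 38.2 CPM under IgG, 74.2, 89.1 and 107.9 under anti-B7-H3, and 108.4, 169.6 and 108.5 under anti-PD1. Both antibody groups lay above IgG without overlap, by 0.62 ± 0.27 and 1.13 ± 0.27 on the log2 scale (edgeR, adjusted p = 0.444 and 0.0816). Rps3, Rps4x and Rps16 also lay higher, by 0.86, 0.72 and 0.76 on the log2 scale, with unadjusted p of 0.00976, 0.00976 and 0.0125 (edgeR). Over the whole small subunit, 30 of 32 genes were above 0 under anti-PD1 (50.5% of all genes), with a median of 0.52. At an unadjusted p under 0.05, 13 were higher (7.67% of all genes).

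Large subunit genes gave values of the same size: 46 of 49 tested genes were above 0 under anti-PD1, with a median of 0.50. At an unadjusted p under 0.05, 20 were higher (7.67% of all genes). Rpl32 measured 108.4, 143.1 and 125.6 CPM under IgG, 129.3, 154.9 and 180.9 under anti-B7-H3, and 211.5, 361.8 and 179.2 under anti-PD1. The anti-PD1 libraries did not overlap with IgG, and the log2 fold change was 1.00 ± 0.27 (SE, edgeR, adjusted p = 0.107). Rpl22l1, a paralog of the RNA-binding protein Rpl22, was low and measured 12.8, 18.3 and 9.66 CPM under IgG, 19.6, 22.3 and 28.2 under anti-B7-H3, and 23.3, 43.9 and 27.5 under anti-PD1. It lay above IgG in every antibody library, with log2 fold changes of 0.73 ± 0.29 and 1.17 ± 0.29 (edgeR, adjusted p = 0.361 and 0.0886). Rpl30, Rpl35a, Rpl11 and Rpl34 followed, at 0.66, 0.73, 0.60 and 0.63 (edgeR, unadjusted p from 0.00967 to 0.0152). Members whose proteins are conserved in all domains of life, a list of 33, had a median of 0.60 under anti-PD1 and 32 above 0, against 0.43 and 44 of 48 for the other tested members.

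Only 5 members were below 0 under anti-PD1, and none of them at an unadjusted p under 0.05. Among them Rps2, a protein at the entry of the mRNA channel, differed by -0.02 ± 0.25, and Rplp1 by -0.05 ± 0.36. Rps27, at -0.99 ± 0.85, had 0 reads in IgG replicate 3 and 81 to 409 in the other libraries compared. Rpl3l, at -0.89 ± 1.49, rested on few reads, 2 to 23 in the 6 libraries compared. Both genes are described further on.

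**Figure D3:**
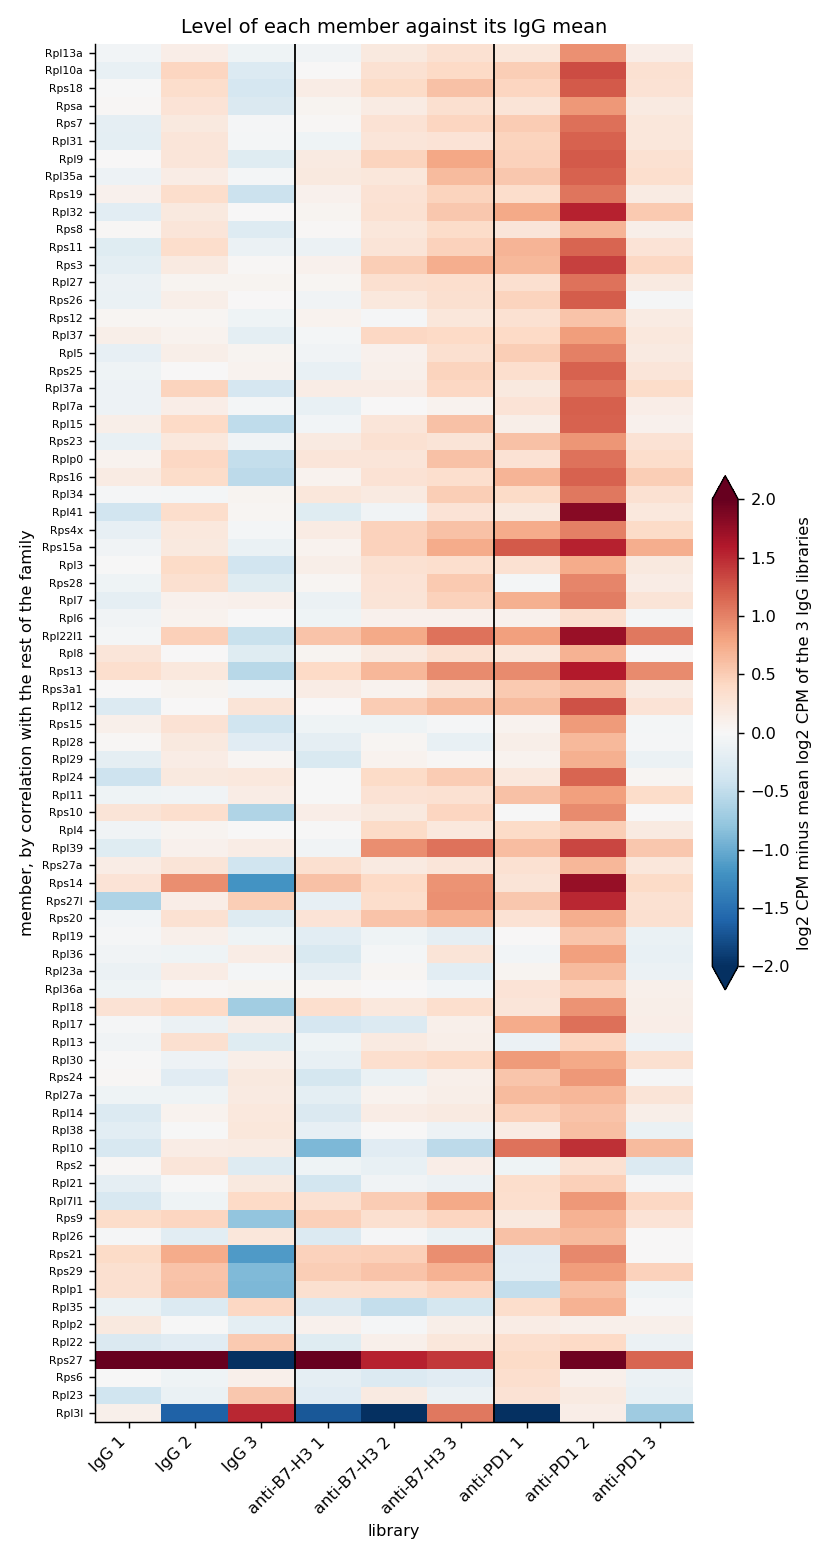
Log2 CPM of 78 of the 81 tested members (rows, ordered by their correlation with the rest of the family, highest at the top) in the 9 libraries (columns), minus the mean log2 CPM of the member in the 3 IgG libraries; red is higher and blue lower, on a scale held between -2 and 2. Anti-PD1 replicate 2 is red in nearly every row, and Rpl3l at the bottom follows no common pattern. Rps27 has 0 reads in IgG replicate 3, which enter its IgG mean, and lies above that mean in every antibody library. Its fitted log2 fold changes against IgG have the opposite sign, at -0.63 for anti-B7-H3 and -0.99 for anti-PD1.

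For anti-B7-H3 against IgG, the difference over the family was small. The median log2 fold change was 0.19 (1.14-fold) against 0.03 over all genes, with 59 of 81 members above 0, against 53.3% of all genes. No member passed in edgeR's test, nor with DESeq2 or limma-voom, while 72 genes passed in edgeR (0.555%), 1 of them higher (0.00771%) and 71 lower (0.548%); the smallest adjusted p of a member was 0.361. At an unadjusted p under 0.05, 5 members were higher (6.17%, against 3.58% of all genes) and 0 lower (6.93% of all genes). By DESeq2 these counts were 5 and 1 (3.67% and 7.74% of all genes), and by limma-voom 11 and 1 (7.37% and 9.75%). Members without overlap between the groups numbered 5 higher and 4 lower, against 7.72% and 8.53% of all genes, a share near the background. These counts moved with single libraries: without anti-B7-H3 replicate 1 and without IgG replicate 2, 31 and 28 members lay above IgG with no overlap (17.8% and 16.4% of all genes). The members higher at an unadjusted p under 0.05 numbered 1 without IgG replicate 1, IgG replicate 3 or anti-B7-H3 replicate 2, 0 without anti-B7-H3 replicate 3 and 2 without IgG replicate 2, where 1.20% to 4.12% of all genes were higher. Leaving out anti-PD1 replicate 1 or 2, which share the fit, gave 3 or 8 (2.94% and 4.89% of all genes). The median was 0.10 without IgG replicate 3 and 0.11 without anti-B7-H3 replicate 3. With the receptor covariate the median turned to -0.57 and 11 of 81 members were above 0. Library totals, which leave the satellite reads in the scale, put the median of all genes at 3.37 and that of the members at 3.51, and 79 members were called higher (96.1% of all genes).

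The 5 members at an unadjusted p under 0.05 included 2 of the rarer paralogs. They were Rpl22l1 (above), Rpl39, whose protein lines the exit tunnel, Rpl7l1, a factor of early ribosome assembly, Rps13 (above) and Rps20. Rpl39 measured 20.4, 25.7 and 26.7 CPM under IgG and 22.9, 46.2 and 51.5 under anti-B7-H3, which overlapped, at 0.74 ± 0.31. Rpl7l1 measured 12.5, 14.8 and 20.7 CPM under IgG, 19.4, 22.3 and 26.5 under anti-B7-H3, and 19.7, 28.4 and 20.9 under anti-PD1, with log2 fold changes of 0.54 ± 0.23 and 0.56 ± 0.23. The lower members with the smallest p included Rpl10, described further on, and Rpl35 at -0.39 ± 0.24. Rps6, which encodes a substrate of S6 kinase, measured 533, 501 and 572 CPM under IgG and 473, 442 and 457 under anti-B7-H3. The groups did not overlap, but the log2 fold change was only -0.23 ± 0.21 (edgeR, adjusted p = 0.757).

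Between the antibodies, the family was lower with anti-B7-H3 than with anti-PD1. The median log2 fold change was -0.33 (1.254-fold lower) against 0.01 over all genes, and 7 of 81 members were above 0, against 51.1% of all genes. No gene at all passed in edgeR's test (0 called, or 0%), and the smallest adjusted p of a member was 0.232. At an unadjusted p under 0.05, 13 members were lower (16.05%, against 2.56% of all genes) and 0 higher (3.92% of all genes). By DESeq2, 21 were lower (3.23% of all genes) and by limma-voom 10 (7.85%). Without overlap 13 lay below anti-PD1 (7.89% of all genes) and 0 above (7.55%). Without anti-PD1 replicate 2 the median was -0.07, with 27 members above 0 and 7 lower at that p. With the receptor covariate the median was -0.44, with 4 of 81 members above 0 and 27 lower at that p (2.82% of all genes). Leaving out anti-B7-H3 replicate 1 gave 3 lower at that p, leaving out its replicate 2 gave 5, and leaving out anti-PD1 replicate 1 or 3 gave 8 or 25; in these fits 1.26% to 3.42% of all genes were lower at that p. DESeq2, and edgeR without a filter, each called 1 member lower (0.1% and 0.00926% of all genes), which was Rpl10 at adjusted p = 3.38e-06 (DESeq2) and 0.0249 (edgeR without a filter). Both antibody groups were set against the same IgG libraries, so the 2 comparisons with IgG are not independent.

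Next to Rpl10, the lower members of smallest p between the antibodies included Rpl17, which lies by the exit tunnel, Rpl35, Rps15a and Rpl26. Rpl17 measured 235.0, 219.9 and 263.7 CPM under IgG, 189.9, 198.0 and 255.9 under anti-B7-H3, and 401.7, 513.2 and 260.7 under anti-PD1. The anti-B7-H3 libraries lay below all anti-PD1 libraries, by -0.87 ± 0.26 on the log2 scale (edgeR, adjusted p = 0.749), but the third library of each group lay close together, at 255.9 and 260.7 CPM. Rpl35, a protein that also lies by the exit tunnel, measured 139.8, 127.4 and 205.2 CPM under IgG, 126.1, 110.9 and 121.3 under anti-B7-H3, and 197.2, 249.5 and 151.5 under anti-PD1, and differed by -0.74 ± 0.24 between the antibodies (edgeR, adjusted p = 0.749). The 7 members above 0 were Rpl3l, Rps27, Rps21, Rplp1, Rps29, Rps20 and Rps9, with values from 0.01 to 0.40, each below its SE.

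Rpl10, which joins the large subunit late and sits near its catalytic centre, stood apart from the family in that contrast. It measured 76.3, 106.1 and 106.8 CPM under IgG, 51.0, 81.5 and 66.6 under anti-B7-H3, and 202.6, 263.7 and 147.6 under anti-PD1. No anti-B7-H3 library reached any anti-PD1 library, and the log2 fold change between the antibodies was -1.62 ± 0.26 (SE, edgeR, adjusted p = 0.232, 3.08-fold lower). Against IgG it was -0.54 ± 0.26 under anti-B7-H3 and 1.09 ± 0.26 under anti-PD1.

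The sequences listed under Rpl10 bear on this value. The annotated full-length coding sequence of Rpl10 (chrX:74270812-74273135, GRCm38, plus strand) has 645 bases, and the same 645 bases, letter for letter, are the coding sequence of Rpl10-ps3 (chr9:50344201-50344968, minus strand), a copy that the annotation classes as protein-coding although its symbol names a pseudogene. In the deposited tables that sequence was listed under Rpl10-ps3. The 2 transcripts listed under Rpl10 were a 603-base stretch from the start of the shared sequence and a 500-base variant. The variant first departs from the shared sequence after base 329. Of its 31-base words, 90.2% also occur in Rpl10-ps3, so sequence beyond that base is shared as well. The lines below give bases 320 to 349 of both, in capitals from the first difference on.
Rpl10-ps3 and full-length Rpl10: gggctgacagGCTCCAGACAGGGATGCGTG
Rpl10 variant: gggctgacagATCCACATCTCAAAGAAGTG
A read from any shared stretch cannot be told apart between both genes. Of the reads on either row, Rpl10 held 40.3%, 38.4% and 47.3% under IgG, 22.6%, 24.4% and 17.5% under anti-B7-H3, and 58.2%, 49.6% and 45.8% under anti-PD1, from 491 to 14786 reads per library. The Wilson interval was widest in IgG replicate 3, from 42.9% to 51.7%. It covers counting error only, not how the estimated counts divided shared reads between the rows. Whether the share itself differed with anti-B7-H3 cannot be told from it.

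Summed over both rows, the level was 189.4, 276.6 and 226.0 CPM under IgG, 225.9, 334.6 and 380.2 under anti-B7-H3, and 348.2, 531.2 and 322.4 under anti-PD1. The summed level overlapped between the antibodies, with a log2 fold change of -0.35 ± 0.27 (SE, edgeR, adjusted p = 0.804), close to the family median of -0.33. Against IgG the sum differed by 0.44 ± 0.27 under anti-B7-H3 and by 0.80 ± 0.27 under anti-PD1 (edgeR, adjusted p = 0.622 and 0.169). The negative value of Rpl10 under anti-B7-H3 was therefore positive once both rows were added. Taken by itself, the Rpl10-ps3 row differed by 0.88 ± 0.29 between anti-B7-H3 and IgG and by 0.33 ± 0.29 between the antibodies (edgeR, adjusted p = 0.257 and 0.820).

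**Figure D4:**
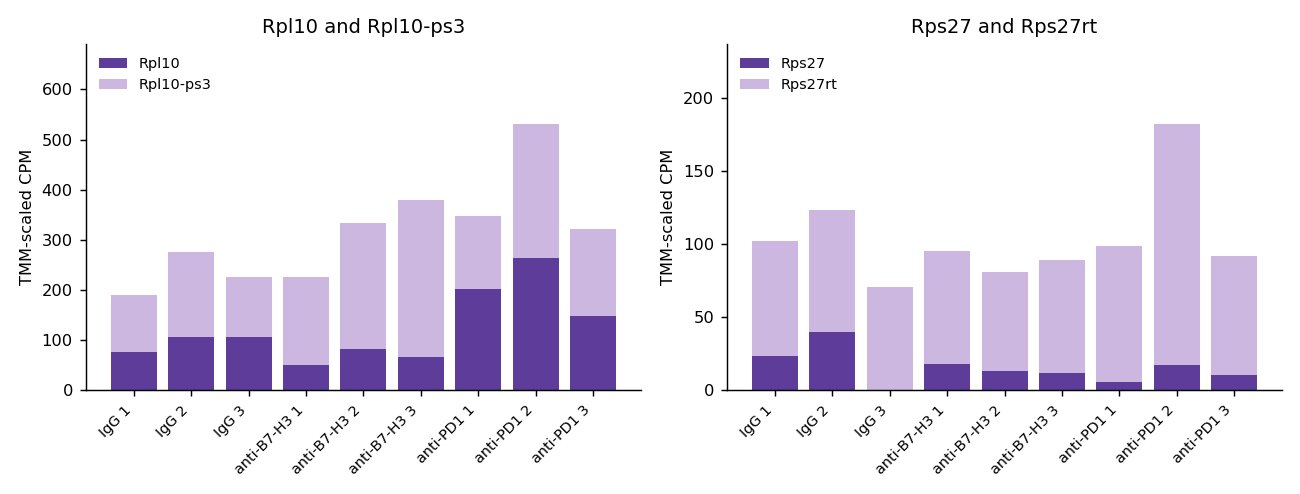
Stacked bars of TMM-scaled CPM in each of the 9 libraries for Rpl10 (dark) and Rpl10-ps3 (light) on the left, and for Rps27 (dark) and Rps27rt (light) on the right. The dark part of the left bars is smallest with anti-B7-H3, at 17.5% to 24.4% of the sum, while the full height there is 225.9 to 380.2 CPM.

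Rps27, a zinc-finger protein of the small subunit, was the only other member in this position. Its annotated full-length coding sequence of 255 bases (chr3:90212522-90213651, minus strand) is identical to that of Rps27rt (chr9:114982366-114982739, minus strand), under which it was listed. The transcripts listed under Rps27 had 159, 249 and 252 bases. The first pair lie wholly within the shared sequence. The 252-base variant first departs from it after base 228, as bases 219 to 248 show, in capitals from the first difference on. Its capitals begin with GGAAGCA, the bases that end the full-length line, so part of this stretch is shared as well.
Rps27rt and full-length Rps27: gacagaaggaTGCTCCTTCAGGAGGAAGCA
Rps27 variant: gacagaaggaGGAAGCAGCACTGAAAGCCC
Rps27 held 23.0%, 32.1% and 0% of the reads on either row with IgG (0 of 153 reads in replicate 3). The Wilson upper bound there was 2.45%, which again leaves out how shared reads were divided. The share of Rps27 was 19.1%, 16.3% and 13.7% under anti-B7-H3, and 5.99%, 9.69% and 11.1% under anti-PD1. The sum was 102.2, 123.3 and 70.4 CPM under IgG, 95.4, 81.1 and 88.7 under anti-B7-H3, and 98.5, 182.0 and 91.6 under anti-PD1. These ranges overlapped, with log2 fold changes of -0.17 ± 0.28 and 0.32 ± 0.28 against IgG (edgeR, adjusted p = 0.889 and 0.569) in place of -0.63 ± 0.84 and -0.99 ± 0.85 for the Rps27 row alone. A further 8 members share over 30% of their 31-base words with another listed gene, and those copies held few reads, at most 395 in any library for Gm15013, a copy of Rps4x that itself had up to 18421. Adding the copies of all 10 members left the number of called members at 0 in each comparison in edgeR, with 5 members higher, 33 higher and 12 lower at an unadjusted p under 0.05 (3.59%, 7.68% and 2.55% of all genes).

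The relative amounts of the members within the family were compared next. Scaled to the summed member reads of each library, no member passed an adjusted p of 0.05 in any of the 3 comparisons (edgeR, smallest adjusted p = 0.376 for Rpl10 under anti-B7-H3, 0.1103 for Rps15a with anti-PD1 and 0.521 for Rpl10 between the antibodies). On that scale the share of all genes called was 0% higher and 0.185% lower, 0% and 1.48%, and 0% and 0%, in the same order. There Rps15a was higher by 0.75 ± 0.23 under anti-PD1 and Rpl22l1 by 0.75 ± 0.25. At an unadjusted p under 0.05 this scale gave 1 member higher and 1 lower with anti-B7-H3 against IgG, 5 higher and 1 lower with anti-PD1 against IgG, and 0 higher and 1 lower between the antibodies. Of all genes, 1.79% were higher and 6.88% lower, 0.632% and 19.1%, and 8.95% and 0.131%, in that order, on a scale that put the median of all genes at -0.08, -0.38 and 0.28. Small subunit genes took 43.6%, 44.1% and 37.1% of the family's TPM (a transcript level per length) with IgG, 44.7%, 43.1% and 44.8% under anti-B7-H3, and 41.6%, 41.9% and 42.8% under anti-PD1. The lowest share was in IgG replicate 3, and both antibody groups lay within the IgG range or within 1 percentage point of it.

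IgG replicate 3, with the fewest reads, also departed most from the common profile. Across members, the SD of its departures was 0.85 on the log2 scale, against 0.14 to 0.33 in the other 8 libraries. Rps27 and Rpl3l, with 0 and 6 reads there, carried much of it: without them the SD was 0.42, against 0.136 to 0.275 in the others. Against the IgG mean its lowest members, Rps27 aside, were Rps14 at -1.20, Rps21 at -1.13, Rplp1 at -0.90 and Rps29 at -0.89. Rps14 measured 158.7, 248.7 and 57.1 CPM in the 3 IgG libraries and 157.4 to 437.6 in the antibody libraries. Rpl23 was the reverse, at 259.7, 314.2 and 497.0 CPM under IgG. In IgG replicate 3, 10 of 81 members had under 100 reads.

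Per length, most members lay near a common level. The mean shares of all tested members spanned 1573-fold, but the low end was Rpl3l, which had 0 to 77 reads per library. Of the 81 tested members, 70 lay within 2-fold of the median share of 1.09% of the family's TPM. The highest were Rpl41, the smallest ribosomal protein, with a mean of 5.33% and a range over the 9 libraries of 3.43% to 8.81%, and Rps29 with 4.07% (1.87% to 5.20%). They were followed by Rps12 with 2.76%, Rps28 with 2.72% and Rps24 with 2.34%, and the ranges of these 3 overlapped. Among the lowest were Rpl10 with 0.523%, which the split of reads above affects, Rps27l with 0.321%, Rpl22l1 with 0.177%, Rpl7l1 with 0.0610% and Rpl3l with 0.00339%. Rank correlations of the shares between libraries ran from 0.65 to 0.95 (Spearman's rho over 81 members, which are not replicates, as a description). Rpl41, Rps29 and Rps28 have short coding sequences, of 141, 171 and 210 bases against a median of 459, and a level per length depends most on the effective length in short genes.

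**Figure D5:**
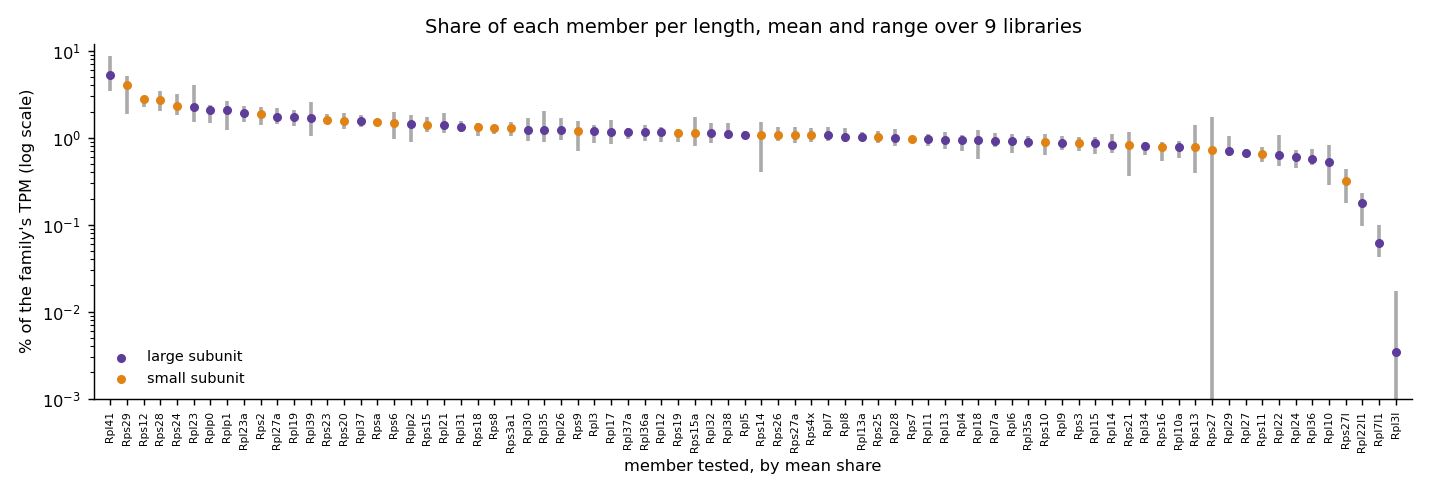
Share of the family's TPM for 78 of the 81 tested members, in percent on a log axis, as the mean over 9 libraries (points, large subunit purple and small subunit orange) and the range (grey lines); a line reaching the lower edge marks a library listed at 0. Of all 81, 70 lie within 2-fold of the median of 1.09%, and the 4 lowest points, from Rps27l to Rpl3l, are paralogs.

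The paralogs are given here beside their parent genes. Rpl22 measured 65.6, 68.7 and 115.5 CPM under IgG, 68.1, 86.2 and 94.2 under anti-B7-H3, and 101.6, 106.0 and 73.9 under anti-PD1, and differed by 0.00 ± 0.25 and 0.18 ± 0.25 from IgG, while Rpl22l1 had the differences given above. Rps27l, a paralog of Rps27 known as a p53 target, measured 9.73, 16.4 and 21.2 CPM under IgG and 21.9, 42.8 and 18.6 under anti-PD1, which overlapped, at 0.85 ± 0.40 (edgeR, adjusted p = 0.288). Rpl7 differed by 0.22 ± 0.25 and 0.69 ± 0.25 from IgG, beside 0.54 ± 0.23 and 0.56 ± 0.23 for Rpl7l1. The difference between a paralog and its parent was not tested.

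Rpl3l, the form of Rpl3 known from heart and skeletal muscle, was at the edge of detection in most libraries. It had 5, 2 and 6 reads in the IgG libraries, 4, 0 and 77 under anti-B7-H3, and 2, 23 and 13 under anti-PD1. In the 6 antibody libraries its order by CPM was the same as that of the summed skeletal muscle markers, from 0 CPM at 1.25 CPM of markers in anti-B7-H3 replicate 2 to 1.98 CPM at 1370 CPM of markers in anti-B7-H3 replicate 3. This was noticed after the values were seen. In the IgG libraries, where muscle markers summed to 18.9 to 44.1 CPM, the receptor background predicts 74.6%, 104% and 77.6% of its reads. It predicts 27.6% and 57.4% in anti-B7-H3 replicate 1 and in the first anti-PD1 library, and 0.579% to 6.33% in the other antibody libraries with Rpl3l reads. Rpl3, the widely expressed form, measured 533, 701 and 411 CPM under IgG and 580 to 897 under the antibodies, and varied with the family (r = 0.90).

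The acidic stalk, which binds elongation factors, has 3 genes, and none of them passed in any comparison. Rplp0, its base, measured 699, 890 and 478 CPM under IgG and 819, 1421 and 847 under anti-PD1, which overlapped (0.58 ± 0.31, edgeR, adjusted p = 0.341). Rplp1 ranged from 110.4 to 307.8 CPM under IgG and from 148.6 to 313.1 under anti-PD1. Rplp2 stayed between 137.1 and 179.7 CPM in all 9 libraries, with log2 fold changes of 0.05 ± 0.17 and 0.11 ± 0.17 against IgG. Rpsa, a small subunit protein also known as a laminin receptor, followed the family closely (r = 0.98) at 569, 677 and 461 CPM under IgG, 583, 629 and 703 under anti-B7-H3, and 669, 1024 and 636 under anti-PD1.

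The members were also compared with each other over the 9 libraries. The correlation of a member's log2 CPM with the mean of the other members had a median of 0.84, was above 0.9 for 30 members and was among the lowest for Rpl3l at -0.06, Rpl23 at 0.11 and Rps6 at 0.20. The points share a scale and 1 library, anti-PD1 replicate 2, that is high in most members, so the correlations are a description. The gene outside the family most like its mean was Eef1a1, which delivers aminoacyl-tRNA to the ribosome and whose mRNA carries the same tract (r = 0.98 over 9 libraries). It measured 3187, 4260 and 2931 CPM under IgG, 3635, 4264 and 4563 under anti-B7-H3, and 4653, 7258 and 4228 under anti-PD1. Those that followed included Vps28, Phpt1, Psmc3, Tefm, Aaed1, Idh3g, Psmb2 and Eif3i, with r from 0.97 to 0.98.

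The members had 513 annotated pseudogene copies in all, with a median of 4 and up to 49 for Rpl21. For the 14 members with at least 10 copies the median log2 fold change was 0.12 under anti-B7-H3 and 0.48 under anti-PD1 against IgG. For the 30 members with under 3 copies it was 0.21 and 0.45. The number of copies and the within-family change correlated at r = -0.20 and -0.04 in these comparisons, and at -0.14 between the antibodies. For coding length, r was -0.10, -0.06 and -0.01 in the same order (all Pearson, 81 members, which are not replicates).

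Genes around the family were described by lists. Of 19 partner genes whose mRNAs carry the same tract or which are built into ribosomes, 17 were above 0 under anti-PD1. The median of the 19 was 0.19, and 3 were higher at an unadjusted p under 0.05, while 0 passed the adjusted test. Of all genes, 50.5% were above 0 in this comparison and 7.67% were higher at that p. Btf3, a subunit of the complex that meets nascent chains, was at 128.0 ± 36.1 CPM under anti-PD1 and 77.6 ± 17.8 under IgG (SD, n = 3, log2 fold change 0.73 ± 0.24, edgeR, adjusted p = 0.155). Eif3e, an initiation factor subunit, was at 148.1 ± 39.95 and 91.7 ± 24.6 CPM (SD, n = 3; 0.70 ± 0.27, edgeR, adjusted p = 0.207). The 78 mitochondrial ribosomal protein genes, which serve the ribosome of mitochondria, had 72 above 0 under anti-PD1, a median of 0.30 and 10 higher at an unadjusted p under 0.05. Among them Mrps33 stood at 9.89 ± 1.76 against 4.38 ± 0.463 CPM (SD, n = 3; 1.15 ± 0.25, edgeR, adjusted p = 0.0680). Translation initiation factors (21 genes) had 15 above 0 and a median of 0.24, with 4 higher at that p.

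Assembly and control genes had medians nearer to 0 or below it, a difference that was not tested. Of 30 assembly factors 21 were above 0 under anti-PD1 (50.5% of all genes), with a median of 0.10. Only 1 passed the adjusted test, beside 0.393% of all genes. It was Rrs1, needed to bring Rpl5 and Rpl11 into the large subunit, which fell from 32.3 ± 8.87 CPM under IgG to 12.5 ± 1.27 under anti-PD1 (SD, n = 3), by -1.35 ± 0.21 on the log2 scale (edgeR, adjusted p = 0.0314). With anti-B7-H3 it was at 17.2 ± 0.443 CPM, at -0.89 ± 0.21 (adjusted p = 0.0874). Rpl5 and Rpl11 themselves ranged from 360 to 437 CPM and from 170 to 199 CPM under IgG, and from 458 to 813 and from 233 to 318 under anti-PD1. RNA polymerase I genes (15) had a median of 0.09 and 0 called. Of 15 tested genes of mTORC1, MYC and their effectors, 5 were above 0 and 0 called; Eif4ebp1, the inhibitor of cap binding that mTORC1 inactivates, was at 16.9 ± 2.75 CPM under anti-PD1 and 28.2 ± 3.73 under IgG (SD, n = 3; -0.75 ± 0.19, edgeR, adjusted p = 0.0934). In the p53 pathway, on which free ribosomal proteins act through Mdm2, 2 of 9 genes were above 0 under anti-PD1. Bbc3, a p53 target that promotes apoptosis, was low, at 1.78 ± 0.191 CPM under anti-PD1 and 5.04 ± 1.64 under IgG (SD, n = 3; -1.44 ± 0.33, edgeR, adjusted p = 0.0726). Under anti-B7-H3 Bbc3 was at 2.11 ± 0.262 CPM, at -1.20 ± 0.32 against IgG (edgeR, adjusted p = 0.143). With anti-B7-H3 against IgG none of these lists held a called gene, and their medians ran from -0.02 to 0.22.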

How the data were processed

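Per the file headers, the authors deposited for each of 9 libraries a table of estimated counts per transcript, not normalized, with TPM values scaled by effective length, by a program not given in the sources used here. FastQC 0.11.8 and GRCm38 come from the submitters' processing notes. Of 58083 transcripts, 57409 matched GENCODE M21 by identifier, and the other 674 held at most 0.369% of reads in a library. Listed lengths equal the coding length for 92.2% of 57298 transcripts. Estimated counts were summed per gene and rounded. All 12965 genes kept by filterByExpr entered 1 robust quasi-likelihood model of 9 libraries (edgeR 4.0.16, R 4.3.3, TMM) with group as the term, and p-values were Benjamini-Hochberg adjusted over all of them at 0.05, with no minimum fold. For relative amounts within the family, the summed member reads replaced the library size. TPM entered only shares of the family's total. On simulated counts with known changes the test was checked before use.

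Alternatives were DESeq2 1.42.0, limma 3.58.1 (voom with quality weights), other scales, no filter, the compared libraries alone, a receptor covariate, a replicate block, each library left out and, added after seeing the data, near copies added to their members. Satellite genes share over 30% of their 15-base words with 5 seed genes. Near copies and pseudogene copies share over 30% of a member's 31-base words. Named are the 6 higher and 6 lower members of smallest p per comparison, or 3 and 3 within the family, paralogs, stalk genes, Rpsa, the 5 highest and 5 lowest per length, up to 3 genes per list and the 10 genes most like the family; others, such as Rps14, Rpl23, Rpl5 and Rpl11, were named after their values were seen. The members and lists were chosen with earlier results of these data known. Values of 4 genes that the rule would name are not reported here, and the figures that show members one by one hold 78 of the 81.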

Additional observations from a re-analysis of the deposited data

Results flagged for a closer look

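In 2 of 81 tested members every anti-B7-H3 library lay below the IgG mean and every anti-PD1 library above it, as in 1.16% of all genes; the reverse held for 0 members and 1.1% of all genes. Rpl10, with an IgG mean of 96.4 CPM, measured 51.0, 81.5 and 66.6 CPM under anti-B7-H3 and 202.6, 263.7 and 147.6 under anti-PD1. Tested against each other, the antibodies differed by -1.62 ± 0.26 on the log2 scale (edgeR, adjusted p = 0.232), and by -0.35 ± 0.27 once reads of the identical coding sequence listed under Rpl10-ps3 were added. Rpl26, which besides its place in the large subunit is known to bind the p53 mRNA, had an IgG mean of 189.4 CPM. It measured 154.7, 184.7 and 170.9 CPM under anti-B7-H3 and 282.7, 291.3 and 190.0 under anti-PD1, a log2 fold change between the antibodies of -0.58 ± 0.22 (edgeR, adjusted p = 0.749), and its lowest anti-PD1 value lay only just above the IgG mean. Neither difference passed the adjusted test.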

How the results depend on the processing

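The count of called members was 0 in every comparison with TMM, DESeq2 size factors, totals outside the satellite genes, the receptor covariate, the replicate block, only the libraries compared and near copies added. Library totals called 79 members higher in each comparison with IgG, as they did 96.1% and 94.8% of all genes, with medians of 3.51 and 3.65 beside 3.37 and 3.15 over all genes. For anti-PD1 against IgG, DESeq2 called 12, limma-voom with quality weights 6 and the fit without a filter 16, all higher, beside 814, 425 and 731 of all genes in either direction, and leaving out 1 library gave 0 to 2, beside 9 to 432 of all genes. Between the antibodies DESeq2 and the fit without a filter each called 1, and leaving out 1 library gave 0. With the receptor covariate the medians against IgG were -0.57 for anti-B7-H3 and -0.0012 for anti-PD1. Between the antibodies the median with this covariate was -0.44, beside -0.33 without it. Leaving out 1 library gave medians of 0.10 to 0.28 for anti-B7-H3 and 0.25 to 0.64 for anti-PD1 against IgG, and -0.47 to -0.07 between the antibodies. The cause of these shifts was not tested. Over all gene reads the members' share was 0.392% with IgG and 4.32% with anti-B7-H3, since the satellite reads enter the total, and the small subunit share by estimated counts was 42.1% under anti-B7-H3 and 41.3% under anti-PD1.

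Same-numbered libraries correlated between -0.32 and 0.18 after removing group means, and differently numbered ones between -0.43 and 0.52. With 3 libraries a group, these values cannot show whether the replicate numbers pair the libraries. With a replicate block the medians were 0.21, 0.48 and -0.31 and 0 members were called, also within the family.

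Of 588 settings of single members, 513 kept direction and side of the threshold, 30 passed the threshold only there and 45 turned sign. For anti-B7-H3 against IgG, library totals gave Rpl10 2.83, Rpl35 3.04, Rps6 3.15, Rpl21 3.20 and Rps27 2.49, totals outside the satellite genes gave Rps6 0.046 and Rpl21 0.091, and no filter gave them 0.013 and 0.051. The receptor covariate gave Rpl22l1 -0.57, Rpl39 -0.59, Rps13 -0.48, Rps20 -0.41, Rps15a -0.35, Rpl35 0.10 and Rps6 0.14, near copies gave Rpl10 0.44, and leaving out 1 library gave Rps27 -1.12 to 0.15. For anti-PD1 against IgG, library totals gave Rps27 2.02, Rpl3l 2.49, Rplp1 3.04 and Rps2 3.10, totals outside the satellite genes gave Rplp1 0.15 and Rps2 0.22, no filter gave Rplp1 0.16 and Rps2 0.20, and near copies gave Rps27 0.32. Leaving out 1 library gave Rplp1 -0.39 to 0.26, Rps2 -0.18 to 0.13 and Rpl3l -1.62 to 0.076. Between the antibodies, Rpl3l was at -2.97 with limma-voom and -0.79 with the replicate block, Rps29 and Rps20 were at -0.072 and -0.11 with the receptor covariate, and near copies gave Rps27 -0.49. There, leaving out 1 library gave Rps20 -0.019 to 0.23, Rps29 -0.080 to 0.43 and Rpl3l -2.63 to 1.09.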
